A study of Mus musculus with 4 samples.

Results

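The 10 genes described here encode the core of hepatic fatty acid synthesis: the transcription factors Srebf1 and Mlxipl, the enzymes Acly, Acaca, Acacb, Fasn, Scd1, Elovl6 and Me1, and the acyltransferase Gpam. They were chosen by name for their role, with earlier results of these data known, and are 10 of the 21938 protein-coding genes that GENCODE vM21 places on chromosomes 1 to 19, X and Y of GRCm38. Every peak that overlapped one of the genes or lay within 10 kb of its transcription start site (TSS, the 5′ end of the gene) was collected from 4 deposited peak lists. The lists came from 2 livers of male C57Bl/6 mice aged 8 to 12 weeks on a normal diet. The WT liver was Uhrf1 fl/fl without Cre, and the Uhrf1hepKO liver was Uhrf1 fl/fl; Alb:Cre, in which the albumin promoter drives Cre and so targets the deletion to hepatocytes. Both mice carried the floxed alleles. Each liver was profiled by ATACseq, which maps accessible chromatin by transposase insertion, and by ChIPseq for the histone variant H2A.Z. UHRF1 is the reader of hemimethylated DNA that is needed to maintain DNA methylation, and the comparison asked where accessible and H2A.Z-marked chromatin lay with and without it. Each condition had 1 library per assay, so the spread between mice is unknown, no p-value was computed, and no difference below is shown to exceed the variation between animals.

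In hepatocytes, citrate exported from mitochondria is cleaved to acetyl-CoA, carboxylated to malonyl-CoA and condensed into palmitate, which is then elongated, desaturated and esterified into triglyceride. SREBP, encoded by Srebf1, raises the transcription of these enzymes in response to insulin, and ChREBP, encoded by Mlxipl, does so in response to glucose. H2A.Z commonly flanks the nucleosome-depleted start of active genes and also marks enhancers.

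The lists held 10582 WT and 10764 Uhrf1hepKO ATACseq peaks, and 51450 WT and 47135 Uhrf1hepKO H2A.Z peaks, on the chromosomes used. The strength of a peak is given as its fold, the pileup of reads plus 1 over the local background plus 1. ATACseq folds are averages over the peak and their read depth is unknown. For H2A.Z the number of reads at the summit was solved from the fold and p-value of every peak, with a median of 21 reads in WT and 23 in Uhrf1hepKO. The fewest reads of a called peak over the most frequent background were 11 and 12. Intervals on these reads are exact 95% Poisson intervals and cover counting error only. Folds and reads were not scaled between libraries. The livers hold several cell types, so fewer cells with a peak cannot be told apart from less signal per cell. Within 1 kb of the TSS, the hepatocyte markers had no peak of WT in either assay and 1 of 7 (Alb) had one in Uhrf1hepKO ATACseq. Kupffer, endothelial and stellate markers had 0 of 5, 0 of 5 and 0 of 4 in every library. Of the 4 cholangiocyte markers, 1 (Sox9) had a peak in every library except Uhrf1hepKO ATACseq. The tissue label could therefore not be checked from its defining markers. Uhrf1 itself had an ATACseq peak and an H2A.Z peak near its TSS in both livers, which does not check the deletion, since the sources used here do not say which part of the gene was floxed.

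Few accessible peaks were called at the starts of the 10 genes. Within 1 kb of the TSS, no gene had a WT ATACseq peak and 1 gene (Acly) had a Uhrf1hepKO ATACseq peak. Across all protein-coding genes, 26.4% had such a peak in WT and 24.1% in Uhrf1hepKO. Within 10 kb, 2 genes (Elovl6 and Fasn) had a WT peak, beside 34.4% of all protein-coding genes. In Uhrf1hepKO, 4 genes (Acacb, Acly, Elovl6 and Fasn) had a peak within 10 kb, beside 32.4%. H2A.Z was found more often. It lay within 1 kb of the TSS of 6 genes in WT (Acaca, Acacb, Elovl6, Me1, Scd1 and Srebf1), beside 46.0% of all genes, and of 4 in Uhrf1hepKO (Acaca, Acacb, Me1 and Scd1), beside 44.5%. Widening the window to 10 kb added no gene for H2A.Z, while the share of all genes rose to 58.4% in WT and 56.5% in Uhrf1hepKO. With 10 genes, each gene is 10% of the set, and the H2A.Z counts and the ATACseq counts within 10 kb lie near the background.

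**Figure D1:**
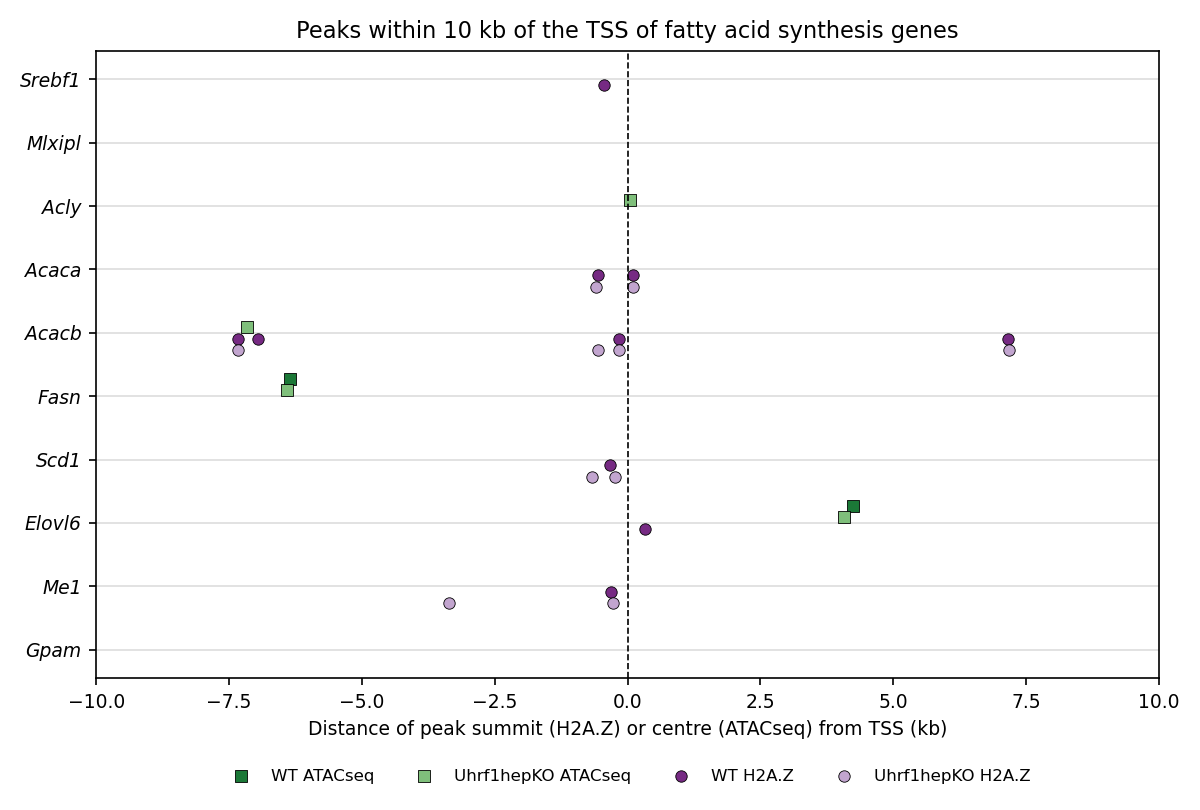
Peaks within 10 kb of the TSS of each gene, with distance from the TSS in kb on the x axis (negative is upstream) and 1 row per gene. Squares are centres of ATACseq peaks and circles are H2A.Z summits, dark for WT and light for Uhrf1hepKO. H2A.Z sits close to the TSS of 6 genes, the Acly start is the only one under an ATACseq peak, and the Mlxipl and Gpam rows are empty.

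Counting peaks anywhere in the genes as well, 53 peaks were assigned to 9 of the 10 genes. They were 3 WT and 5 Uhrf1hepKO ATACseq peaks at 5 genes, and 24 WT and 21 Uhrf1hepKO H2A.Z peaks at 6 genes. Acacb and Elovl6 were the 2 genes with both kinds of peak. Acaca, the longest gene of the set at 272 kb, held 26 of the 53. None of the 8 ATACseq peaks overlapped an H2A.Z peak of either liver. The 8 ATACseq peaks marked 6 places, of which 2, at Fasn and Elovl6, were found in both livers.

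The sequences of 5 accessible places are printed because the ATACseq peaks at these genes lay there, together with 3 gene starts that differed in their H2A.Z. Each is a window of 300 bases from the RefSeq assembly GRCm38.p6, written 5′ to 3′ on the strand of the gene, and the windows of accessible places are centred on the peak or on the overlap of the peaks of both livers. Capitals mark matches on either strand to 8 motifs: E-box CACGTG, sterol response element TCACNCCAC, NF-Y CCAAT, Sp1 GGGCGG, the nuclear receptor hexamer AGGTCA, HNF4A CAAAGTCCA, FOXA TGTTTAC and CEBP TTGCGCAA. A match is a run of letters and does not show binding. Of 32817 RefSeq promoters (300 bases, from 250 before the start to 50 from it), 7.15% held the E-box, 1.24% the sterol response element, 37.4% NF-Y, 35.6% Sp1, 16.3% the hexamer, 0.475% HNF4A, 3.65% FOXA and 0.183% CEBP. In windows at all WT ATACseq peaks, the sterol response element was in 1.04%, NF-Y in 41.4% and Sp1 in 40.5%.

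Elovl6, which lengthens palmitate to stearate, had its accessible place in an intron (chr3:129536294-129536593, + strand, GRCm38):
Elovl6 intron: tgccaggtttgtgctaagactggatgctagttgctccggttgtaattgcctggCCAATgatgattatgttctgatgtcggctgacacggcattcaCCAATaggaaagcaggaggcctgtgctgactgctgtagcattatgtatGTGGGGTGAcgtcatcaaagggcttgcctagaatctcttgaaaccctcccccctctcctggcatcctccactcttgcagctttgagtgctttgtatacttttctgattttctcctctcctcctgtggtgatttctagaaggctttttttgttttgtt

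This window held a match to the sterol response element, GTGGGGTGA, at +4086 bp from the TSS, and 2 matches to NF-Y, at +3994 and +4036 bp. It was the only one of these 5 accessible places with a sterol response element match. It contained 4 CpG dinucleotides, beside a median of 14 in windows at all WT ATACseq peaks and 10 at all Uhrf1hepKO ATACseq peaks. The WT peak (chr3:129536382-129536813) had a fold of 4.19 and was 432 bp wide, and the Uhrf1hepKO peak (chr3:129536345-129536504) had a fold of 5.17 and was 160 bp wide. By fold, the Uhrf1hepKO peak ranked above 81.3% of its own list, while the WT peak was above 44.9% of its list. Because each fold is an average over the peak and the widths differ, these ranks do not compare like stretches. The nearest H2A.Z, in WT, was 3614 bp away on the side of the TSS.

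Fasn, the multifunctional enzyme that assembles palmitate, had an accessible place upstream of the gene (chr11:120830783-120831082, − strand):
Fasn upstream: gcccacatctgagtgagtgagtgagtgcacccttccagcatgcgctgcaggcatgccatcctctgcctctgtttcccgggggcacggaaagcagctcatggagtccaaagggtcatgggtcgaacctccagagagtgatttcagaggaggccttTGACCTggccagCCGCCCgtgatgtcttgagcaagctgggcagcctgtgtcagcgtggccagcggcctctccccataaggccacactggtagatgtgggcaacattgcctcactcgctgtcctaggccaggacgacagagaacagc

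The 2 livers overlapped here by 93 bp. The WT peak (chr11:120830834-120830978) was centred at −6359 bp with a fold of 3.67, and the Uhrf1hepKO peak (chr11:120830886-120831049) at −6420 bp with a fold of 3.46. Both were among the weaker peaks of their lists, with −log10 q-values of 1.45 and 1.28. The TSS nearest to them was that of the antisense RNA Gm11773, at 123 and 62 bp, and both lay inside the gene Ccdc57, so the place cannot be assigned to Fasn by position alone. No H2A.Z lay within 10 kb of the Fasn TSS or in the gene, the nearest H2A.Z being 5094 bp beyond its 3′ end in WT and 5122 bp in Uhrf1hepKO. The Fasn start (chr11:120824498-120824797, − strand) therefore carried no peak in any library:
Fasn start: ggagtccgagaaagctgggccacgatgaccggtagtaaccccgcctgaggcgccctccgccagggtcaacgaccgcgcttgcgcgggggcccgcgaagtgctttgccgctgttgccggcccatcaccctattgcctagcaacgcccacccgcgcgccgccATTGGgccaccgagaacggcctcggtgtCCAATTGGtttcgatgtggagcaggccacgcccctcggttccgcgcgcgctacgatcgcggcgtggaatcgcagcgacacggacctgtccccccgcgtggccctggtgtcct

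This window held 39 CpG dinucleotides, beside a median of 7 over RefSeq promoters. Its capitals are 3 matches to NF-Y, at −88, −60 and −57 bp, of which the last 2 overlap on opposite strands. Neither an E-box nor a sterol response element match was found in these letters.

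Acly, ATP citrate lyase, makes the cytosolic acetyl-CoA that starts the pathway, and was the only gene whose TSS lay under an ATACseq peak (chr11:100527806-100528105, − strand):
Acly start: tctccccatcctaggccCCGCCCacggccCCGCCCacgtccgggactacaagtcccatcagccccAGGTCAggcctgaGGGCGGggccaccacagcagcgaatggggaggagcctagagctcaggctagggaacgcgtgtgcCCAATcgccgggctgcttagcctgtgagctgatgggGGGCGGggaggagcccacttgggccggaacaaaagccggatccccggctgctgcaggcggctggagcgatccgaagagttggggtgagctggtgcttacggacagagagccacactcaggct

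The peak (chr11:100527877-100528034) was in the Uhrf1hepKO list, with a fold of 4.62, above 69.2% of its list. The nearest WT ATACseq peak was 129774 bp from it. Of the Uhrf1hepKO ATACseq peaks of like fold (within 5%), 74.1% overlapped a WT peak. The window held 19 CpGs, 4 Sp1 matches, 1 NF-Y match at +39 bp and 1 hexamer at −37 bp. No H2A.Z peak lay in Acly or within 10 kb of its TSS in either liver, and the nearest was at Ttc25, 17249 bp upstream of the TSS in WT and 17092 bp in Uhrf1hepKO.

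Acacb, the acetyl-CoA carboxylase of the mitochondrial surface, whose malonyl-CoA restrains fatty acid uptake into mitochondria, had an accessible place upstream of the gene in Uhrf1hepKO (chr5:114139224-114139523, + strand):
Acacb upstream: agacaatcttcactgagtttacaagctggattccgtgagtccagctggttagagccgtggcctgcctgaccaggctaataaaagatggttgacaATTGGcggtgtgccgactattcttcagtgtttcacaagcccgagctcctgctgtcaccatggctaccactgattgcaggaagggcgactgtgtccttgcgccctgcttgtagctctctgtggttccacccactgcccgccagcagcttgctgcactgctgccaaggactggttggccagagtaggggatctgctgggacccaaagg

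The upstream peak (chr5:114139310-114139437) was centred at −7162 bp with a fold of 4.36, and overlapped the end of the neighbouring gene Ung. In WT, which had no ATACseq peak there, H2A.Z peaks lay on either side of the same stretch, 48 bp and 73 bp from its edges. In Uhrf1hepKO, H2A.Z was called on the 5′ side, 74 bp away. The window held 1 NF-Y match. Of Uhrf1hepKO peaks of like fold, 68.9% overlapped a WT peak.

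Gpam, the mitochondrial acyltransferase that commits fatty acids to triglyceride, had no peak within 10 kb of its TSS. Its accessible place was internal (chr19:55099423-55099722, − strand):
Gpam intron: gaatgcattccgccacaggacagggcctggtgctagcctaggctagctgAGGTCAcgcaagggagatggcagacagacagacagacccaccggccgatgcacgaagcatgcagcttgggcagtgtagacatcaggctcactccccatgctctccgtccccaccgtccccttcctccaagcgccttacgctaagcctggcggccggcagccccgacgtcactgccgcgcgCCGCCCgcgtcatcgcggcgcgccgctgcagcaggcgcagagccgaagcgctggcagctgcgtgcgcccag

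The peak (chr19:55099452-55099693) was in the Uhrf1hepKO list with a fold of 3.85, centred at +27666 bp. It covered a RefSeq start of Gpam, was centred at −121 bp from the start of the transcript Gpam-201 and was 70 bp from the TSS of the antisense RNA AC110206.1. The window held 29 CpGs, 1 Sp1 match and 1 hexamer. The nearest WT ATACseq peak was 118643 bp from it, and 53.1% of Uhrf1hepKO peaks of like fold overlapped a WT peak. When distances were taken from the start of any annotated transcript in place of the gene's 5′ end, Gpam joined Acly in Uhrf1hepKO, and the counts at 1 kb became 1 gene in WT and 2 in Uhrf1hepKO.

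Of the 3 WT ATACseq peaks, 2 overlapped a Uhrf1hepKO peak, and 2 of the 5 Uhrf1hepKO peaks overlapped a WT peak. Over the whole lists, 61.3% of WT and 60.3% of Uhrf1hepKO ATACseq peaks did so. The 3 WT peaks all fell below the median fold of their list (4.31), with folds from 3.67 to 4.19, and 3 of the 5 Uhrf1hepKO peaks were at or above the median of theirs (4.05). Near the fold of these peaks a sizeable share of the lists was not shared between the livers.

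Acaca, the cytosolic carboxylase that makes the malonyl-CoA used for chain growth, held the most H2A.Z peaks by count, 14 in WT and 12 in Uhrf1hepKO, and is also the longest of the genes. Within 10 kb of the TSS it had 2 in each liver, beside 4 in each at Acacb. At the start of the gene, which is transcribed away from Tada2a with 72 bp between their TSSs, a peak lay on each side. Upstream, at −565 bp in WT and −597 bp in Uhrf1hepKO and inside Tada2a, the summits had 29 reads (95% interval 19.4 to 41.6) and 31 reads (21.1 to 44.0). Downstream, at +106 and +102 bp in an exon, they had 24 reads (15.4 to 35.7) and 23 reads (14.6 to 34.5). The gap between these 2 called peaks was 387 bp in WT and 400 bp in Uhrf1hepKO. The sequence of the gap is shown because no H2A.Z or ATACseq peak was called in it, though signal below the calling threshold may lie there (chr11:84129422-84129721, + strand):
Acaca start: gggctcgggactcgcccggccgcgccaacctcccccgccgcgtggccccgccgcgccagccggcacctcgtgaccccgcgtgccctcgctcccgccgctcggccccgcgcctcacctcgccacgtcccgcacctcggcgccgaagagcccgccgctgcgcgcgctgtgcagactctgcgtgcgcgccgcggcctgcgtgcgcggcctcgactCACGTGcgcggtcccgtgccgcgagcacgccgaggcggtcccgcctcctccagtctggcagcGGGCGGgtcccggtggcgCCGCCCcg

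It held 57 CpGs, an E-box at −36 bp and Sp1 matches at +26 and +44 bp. The nearest ATACseq peaks were 75625 bp from the TSS in WT and 75495 bp in Uhrf1hepKO, both upstream.

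Inside Acaca, H2A.Z peaks were clustered between +12490 and +49649 bp (WT summits). A group of 4 summits spanned +12490 to +17311 bp, with 14 to 20 reads in WT and 18 to 26 in Uhrf1hepKO. A further group began at Gm11437, an annotated protein-coding gene within the Acaca intron. The strongest peak by fold in Uhrf1hepKO lay at +43698 bp, with 39 reads (27.7 to 53.3) and a fold of 9.30. Its summit was 16 bp into Acaca-207, annotated as a retained-intron transcript. Its edge was 1 bp from the start of the protein-coding transcript Acaca-202, at +43450 bp. The WT peak at +43692 bp had 30 reads (20.2 to 42.8) and a fold of 7.56. The next summits, at +49649 bp in WT with 23 reads and at +49630 bp in Uhrf1hepKO with 32 reads, were at −510 and −529 bp from the start of Acaca-206. Of the 12 WT summits inside Acaca beyond the one at its start, 2 (+43692 and +49649 bp) were within 1 kb of an internal annotated Acaca start, and the others lay farther from any. Farther in, a peak at +223696 bp in WT (24 reads) and +223691 bp in Uhrf1hepKO (25 reads) was present in both livers, and a peak at +89667 bp (19 reads) was called in WT only.

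**Figure D2:**
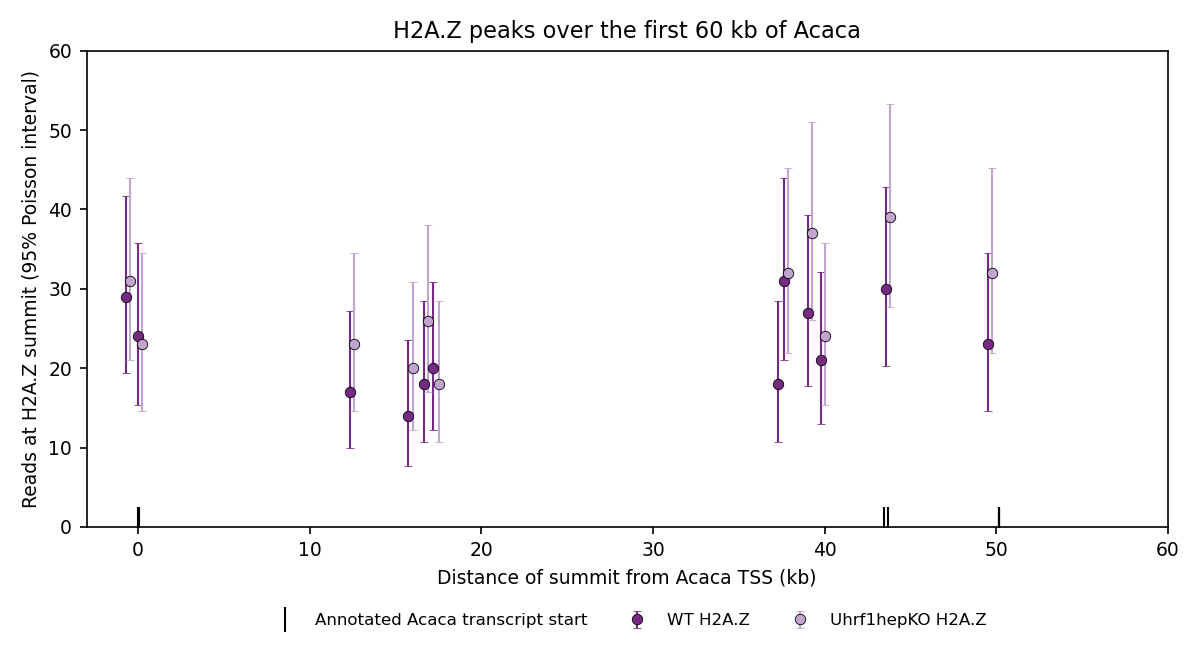
Reads at H2A.Z summits over the start and introns of Acaca, with distance from the TSS in kb on the x axis and reads on the y axis. Dark points are WT and light points Uhrf1hepKO, shifted slightly apart, bars are exact 95% Poisson intervals, and ticks at the bottom are annotated transcript starts. Summits recur at the same places in both livers, from 14 to 31 reads in WT and from 18 to 39 in Uhrf1hepKO.

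Comparing overlapping H2A.Z peaks of the livers gave 18 pairs at 4 genes, 12 of them in Acaca. In Acaca, 10 of the 12 had more reads in Uhrf1hepKO and 2 had more in WT, with a median ratio of Uhrf1hepKO to WT of 1.33. Over all 34183 pairs of the lists the median ratio was 1.07, and 59.3% had more reads in Uhrf1hepKO. The most frequent background was 3.1 reads in WT and 3.3 in Uhrf1hepKO, and the ratios were not scaled for it. The 95% intervals of WT and Uhrf1hepKO overlapped in all 18 pairs. A ratio of at least 1.5 in favor of Uhrf1hepKO was reached by 1 of the 18 pairs, beside 5.50% of all pairs, and in favor of WT by 0 of the 18, beside 1.39%. That pair was the Gm11437 peak in Acaca, with 18 WT reads at +37393 bp and 32 Uhrf1hepKO reads at +37745 bp. Its summits were far apart, and a second WT peak at +37741 bp, next to the Uhrf1hepKO summit, had 31 reads. When pairs were made by nearest summit, an alternative chosen after seeing the data, 0 of 18 pairs reached 1.5 and the median ratio in Acaca was 1.22.

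The 6 pairs outside Acaca had a median ratio of 1, with 2 higher in Uhrf1hepKO, 2 higher in WT and 2 equal. At Acacb, the promoter peak at −160 bp had 25 reads in WT (16.2 to 36.9), and its Uhrf1hepKO partner at −158 bp had 32 (21.9 to 45.2). The peaks at −7332 bp had 18 reads in both livers, those at +7166 bp had 25 in both, and those at +29048 bp had 25 in WT and 21 in Uhrf1hepKO. The intervals of the livers overlapped at each of these Acacb peaks, which does not show that the profiles were equal. Me1, the cytosolic malic enzyme that supplies NADPH, had 21 reads at −311 bp in WT (13.0 to 32.1) and 25 at −281 bp in Uhrf1hepKO (16.2 to 36.9). Scd1, the desaturase that makes oleate and palmitoleate, had 21 reads at −331 bp in WT (13.0 to 32.1) and 18 at −236 bp in Uhrf1hepKO (10.7 to 28.4). Both genes had H2A.Z upstream of the start in each liver.

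**Figure D3:**
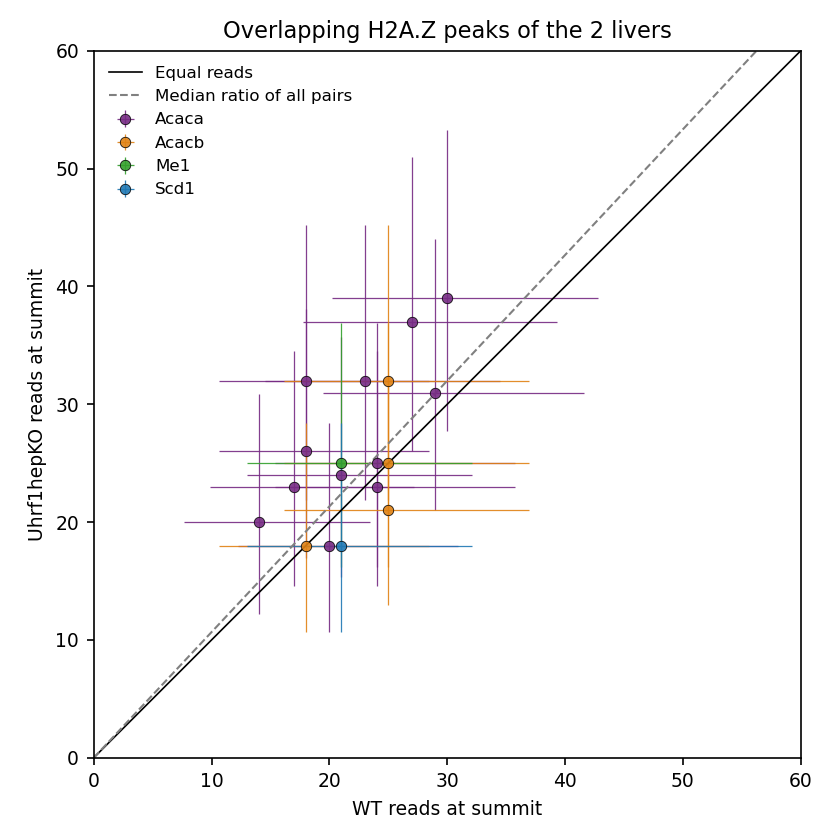
Reads at the summit of overlapping H2A.Z peaks, WT on the x axis and Uhrf1hepKO on the y axis, with exact 95% Poisson intervals as bars. Points are the 18 pairs colored by gene, the solid line marks equal reads and the dashed line the median ratio of 1.07 over all pairs. Most Acaca points lie above the dashed line, and the WT and Uhrf1hepKO intervals of every pair overlap.

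The H2A.Z peaks of the 10 genes were shared between the livers in 19 of 24 cases in WT and 18 of 21 in Uhrf1hepKO. Over the whole lists, 70.0% of WT and 75.6% of Uhrf1hepKO peaks overlapped a peak of the other genotype. Srebf1 was marked in WT only, by a peak at −448 bp (chr11:60222988-60223095) with 21 reads (13.0 to 32.1). The nearest Uhrf1hepKO H2A.Z peak was 107829 bp from it, although 72.1% of WT peaks with the same number of summit reads overlapped a Uhrf1hepKO peak. The Srebf1 TSS used here is the start of a processed transcript, which is not annotated as protein-coding. The edge of the WT peak was 2384 bp from the nearest protein-coding start of Srebf1, at +1977 bp. No protein-coding start of Srebf1 therefore had an H2A.Z peak within 1 kb in either liver. Elovl6 was marked in WT only, by a peak at +327 bp with 13 reads, a number at which 28.4% of WT peaks were shared. That summit lay 294 bp from the TSS of the antisense RNA Gm35986 and at −45 bp from the start of Elovl6-203. These 2 peaks make up the difference between the 6 genes marked in WT and the 4 in Uhrf1hepKO.

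The other peaks found in 1 liver were at genes that were marked in both. In WT these were the Acaca peak at +89667 bp and the Acacb peaks at −6961 bp (20 reads) and +26598 bp. The last had 38 reads over a local background of 6.76 reads, against 3.10 at 93.6% of WT peaks, and the nearest Uhrf1hepKO peak was 2339 bp away. Of the 394 WT peaks with 38 summit reads, 99.0% overlapped a Uhrf1hepKO peak, and of the 485 over a background of at least 6 reads, 75.9% did. In Uhrf1hepKO the added peaks lay at −547 bp of Acacb (20 reads), −667 bp of Scd1 (23 reads) and −3369 bp of Me1 (20 reads), the last 166 bp from the small nuclear RNA gene Gm25949. The Scd1 and Acacb peaks were 149 and 255 bp from a WT peak, so at these starts H2A.Z extended farther upstream in the Uhrf1hepKO list. Of Uhrf1hepKO peaks with the same number of summit reads as these, 82.4% (Scd1) and 66.0% (Acacb) overlapped a WT peak.

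The Me1 start is shown because H2A.Z lay directly upstream of it in both livers while no ATACseq peak was called in Me1 (chr9:86695865-86696164, − strand):
Me1 start: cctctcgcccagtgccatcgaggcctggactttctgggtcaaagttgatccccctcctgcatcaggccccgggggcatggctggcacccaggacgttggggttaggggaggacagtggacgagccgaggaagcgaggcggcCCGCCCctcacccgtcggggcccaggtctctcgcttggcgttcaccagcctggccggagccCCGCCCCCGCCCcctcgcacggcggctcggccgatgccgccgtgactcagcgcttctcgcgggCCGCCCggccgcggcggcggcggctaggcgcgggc

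It held 35 CpGs and 4 Sp1 matches, and no match to the other 7 motifs. The nearest ATACseq peak to the Me1 TSS, at Dop1a, was 228322 bp away in WT and 228473 bp in Uhrf1hepKO. RefSeq promoters were matched for 9 of the 10 genes, in 14 windows. Some of these windows lie at starts inside the gene. The only window of Acaca was at a start at +65766 bp, and that of Acacb at +18983 bp. The Acaca start printed above, with its E-box, is therefore not among the 14. NF-Y was found in 8 of the 14 windows, beside 37.4% of all RefSeq promoters, and Sp1 in 6, beside 35.6%. The hexamer was in 4 (Acacb, Acly, Elovl6 and Gpam), beside 16.3%. The E-box and the sterol response element were in 1 each (both Mlxipl), beside 7.15% and 1.24%. FOXA was in 1 (Elovl6), beside 3.65%, and HNF4A and CEBP were in none.

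Mlxipl was the only gene with no peak in any library, over the 48.5 kb gene and 10 kb around its TSS. The nearest peaks of all 4 lists were at the start of Dnajc30, from 25461 to 25681 bp upstream of the Mlxipl TSS. The Mlxipl TSS used here is the start of a processed transcript, and the nearest protein-coding start of Mlxipl is at +17012 bp. The window at this TSS held an E-box at −96 bp. That of the RefSeq start at +17001 bp, close to the protein-coding start, held a sterol response element match, TCACACCAC, at +16869 bp. Srebf1, by contrast, had its WT H2A.Z peak but no ATACseq peak, the nearest being 107093 bp from the TSS in WT and 129992 bp in Uhrf1hepKO. Neither of the transcription factor genes thus had accessible chromatin called at or near its start.

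The related gene lists had a peak within 1 kb of the TSS at a larger share of genes than the 10 genes, in both assays and both livers. For WT H2A.Z the lipogenesis partners were close to the 10 genes, at 63.3% beside 60%. Within 1 kb of the TSS, 16 of 22 cholesterol synthesis genes had a WT ATACseq peak and 16 a Uhrf1hepKO one. Of 20 fatty acid oxidation genes, 12 had one in WT and 10 in Uhrf1hepKO. Of 30 partners of lipogenesis (regulators, NADPH suppliers, elongation, desaturation and esterification enzymes), 13 had one in WT and 12 in Uhrf1hepKO. The same counts for the 10 genes were 0 and 1. For H2A.Z, the counts were 16 and 15 of 22, 16 and 14 of 20, and 19 and 19 of 30. The 10 genes had H2A.Z at 6 in WT and 4 in Uhrf1hepKO, beside 46.0% and 44.5% of all protein-coding genes. The strongest WT ATACseq peaks of these lists were at Hsd17b7 (fold 8.22), Hsd17b12 (7.45) and Etfdh (7.22), each above the highest WT fold at the 10 genes, 4.19 in the Elovl6 intron. The strongest WT H2A.Z peaks were at Pgd (52 reads), Dgat2 (46) and Usf1 (42), beside 29 for the strongest at a start of the 10 genes, that of Acaca. By fold, that Acaca peak ranked above 80.8% of the WT H2A.Z list. The maxima of the related lists come from more genes, and from peaks within 1 kb of a TSS, where the Elovl6 peak does not lie. They therefore do not compare like sets. No test of these differences was made, because the lists were chosen with results known.

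**Figure D4:**
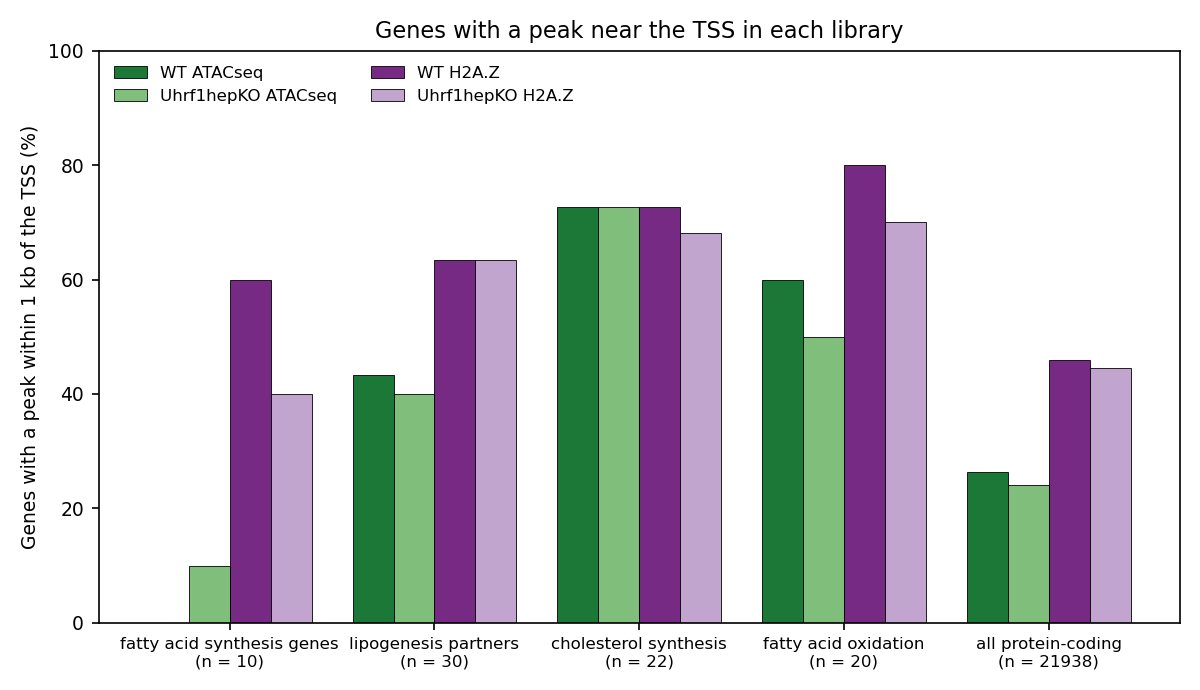
On the y axis, the percent of genes whose TSS has a peak less than 1 kb away, for the 10 fatty acid synthesis genes, the 3 related lists and all protein-coding genes on the x axis. Green bars are ATACseq and purple bars H2A.Z, dark for WT and light for Uhrf1hepKO. The WT ATACseq bar of the fatty acid synthesis genes is at 0 and that of all protein-coding genes at 26.4%.

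CpG content moved with the presence of a peak in both assays. Over genes with a RefSeq promoter within 1 kb of the TSS, a WT ATACseq peak was present at 3.16% of those with 0 to 4 CpGs in the window, 20.5% with 5 to 14, 49.4% with 15 to 29 and 45.1% with 30 or more. For WT H2A.Z the shares were 10.2%, 43.1%, 75.5% and 72.8%. The 7 of the 10 genes with such a promoter had 9 to 39 CpGs, with a median of 18. The medians were 20 for the lipogenesis partners, 23 for cholesterol synthesis and 17 for fatty acid oxidation. The part of CpG content in the difference between the lists was not tested.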

How the data were processed

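ATACseq and H2A.Z ChIPseq were done on 1 WT and 1 Uhrf1hepKO liver. Per the study's methods, the authors aligned reads with BWA-MEM to GRCm38.p4, cleaned and sorted them with Picard, removed duplicates for ChIPseq, and ran MACS2 on every library separately, for ATACseq in broad mode with the paired-end setting and a stated p of 0.05. The methods also give single-end reads for ATACseq, which conflicts with that setting. The highest q-value in the lists was 0.0997 in WT and 0.0993 in Uhrf1hepKO for ATACseq, and 0.0500 and 0.0489 for H2A.Z, and how these limits relate to the stated p is not given in the sources used here. The submitters' processing notes add FastQC 0.11.5 and Trimmomatic. The calling mode and control of the H2A.Z lists, the MACS2 version and any transposase shift are not given in the sources used here. A broad list merges nearby signal and averages its fold, and a start just under the threshold has no entry.

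The deposited files hold, for each peak, its position, a fold (a linear ratio of pileup to background), −log10 p and −log10 q, and a display score, which equals 10 times −log10 q rounded down and was not used. Positions were taken 1-based. Summit reads of each H2A.Z peak were solved as the whole number that returns the deposited fold and −log10 p (tolerance 0.01, 100% of peaks solved). Peaks were assigned with GENCODE vM21 on GRCm38 and overlapped by at least 1 bp. Peaks of like fold are those within 5% of an ATACseq fold, and H2A.Z peaks were compared with those of equal summit reads. Sequences came from RefSeq GRCm38.p6. Each library stood alone as 1 sample and no test was made. The steps were tested on simulated data. The sequence and position of 1 accessible place, which stays in the counts, are not reported here. The alternatives were other windows, starts, fold and q-value minimums, overlaps and pairings. Genes named are the 10, those whose TSS was nearest to one of their peaks or marks the place, the 3 strongest WT genes per related list and assay within 1 kb of the TSS (given in part), marker genes with a peak, and Uhrf1. Ccdc57, Ung and the genes beside the nearest outside peaks (Dnajc30, Dop1a, Ttc25) were added after their positions were seen. All gene lists, like the 10 genes, were chosen with earlier results of these data known. Versions were pysam 0.24.0, scipy 1.17.1, pandas 2.3.3 and numpy 2.4.6 under Python 3.11.15.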

Additional observations from a re-analysis of the deposited data

How the results depend on the processing

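Among the alternatives, 46 left the count or share within 1.5 times of that reported and 24 did not. With a window of 5 kb, genes with an ATACseq peak fell from 2 to 1 in WT and from 4 to 2 in Uhrf1hepKO, and Uhrf1hepKO ATACseq peaks from 5 to 3. Counting from any transcript start, 1 gene in WT and 2 in Uhrf1hepKO had an ATACseq peak within 1 kb. Where peaks below the median fold of their list were dropped, WT kept 0 genes, 0 ATACseq peaks and 0 shared ones. Under the same minimum, Uhrf1hepKO kept 3 ATACseq peaks, 1 of them shared, and 13 of 21 H2A.Z peaks. A −log10 q of at least 2 left 1 gene with a WT ATACseq peak within 10 kb. Requiring an overlap of 50% left 1 shared ATACseq peak in each liver. With a minimum of 2 times, 0 H2A.Z pairs were past it in favor of Uhrf1hepKO. Paired by nearest summit (added after seeing the data), 0 of 18 pairs reached 1.5 times in that direction. Of those 18 pairs, 12 had more reads in Uhrf1hepKO and 4 had more in WT. Over all annotated genes in place of protein-coding ones, the background fell, for WT ATACseq to 12.9% within 1 kb. No paired analysis was possible because each condition had 1 library. Leaving out a replicate was not possible for the same reason. ATACseq depth is unknown, and a start without a listed peak may hold signal below the calling threshold.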
